A study of Oryza sativa with 9 samples.

Results

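Leaf transcript levels were compared between 2 lines that carry the same mutant genotype, osatxr5c;osatxr6kd, in rice (Oryza sativa). The comparison was defined by library titles: the 3 libraries titled with line number 2 (mutant line 2) were set against the 3 titled with line number 1 (mutant line 1), 6 of the 9 RNA sequencing libraries of the study. The other 3 libraries, titled NP and given the genotype WT, were used for the spread between libraries and as a reference level. All groups were leaves of plants aged 40 days from a paddy field, with no treatment named. The labels give both lines the same genotype name and do not spell out what the suffixes c and kd stand for. They do not say whether the lines hold identical alleles, arose independently, were bred to a pure state or differ in how far OsATXR6 is reduced. Whether a replicate number stands for a plant, a pool or a repeat library is not stated either, so p-values measure the spread between these libraries only.

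ATXR5 and ATXR6 are plant enzymes that place a single methyl group on a lysine of histone H3 (the mark H3K27me1). In Arabidopsis the pair acts during DNA replication, and its loss is known for the reactivation of silenced transposons and for extra DNA copies in heterochromatin. Lines that share a genotype label are commonly compared side by side. The label leaves unstated how such lines may differ, and no cause of a difference was tested here.

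The authors' table lists 55986 rice locus identifiers without gene names. Of these, 55801 carry a chromosome number from 1 to 12. None occurred as written among the 39387 records of the RefSeq gene table of assembly ASM3414082v1, and 1 occurred there without its LOC_ prefix. Functional groups of genes, OsATXR5 and OsATXR6 themselves and leaf marker genes were therefore not analysed here, and which known functions separate the lines could not be described. The genes below are described by level, direction, position in the identifier order and relation to WT.

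Among the largest differences between the lines were those of genes listed at 0 in every library of one line. Such genes were much more often present in line 1 than in line 2. With presence defined as at least 1 TPM (a relative transcript abundance that is corrected for gene length and scaled to the same total in each library) in all 3 libraries of a line, 49 genes were present in line 1 and listed at 0 throughout line 2. The opposite held for 9 genes. The 49 genes lay on 11 chromosomes, and their mean level in line 1 ranged from 1.19 to 65.5 TPM with a median of 3.64. In WT, 43 of the 49 were listed at 0 in all 3 libraries, so most were absent from the values of both other groups. Of the 9 genes present in line 2, 4 were listed at 0 in all WT libraries. With presence set at 5 TPM the numbers were 16 and 3. The lowest value above 0 in a library lay between 0.303 and 0.327 TPM, and no value lay between 0 and that edge.

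LOC_Os07g05840, on chromosome 7, fell most. It had 64.4, 65.7 and 66.3 TPM in line 1, whereas the 3 libraries of line 2 and the 3 of WT all list it at 0. The line 1 libraries lay within 2 TPM of one another and far above all others. Its change from line 1 to line 2 was -6.05 ± 0.11 (SE) in log2(TPM + 1), and limma gave an adjusted p of 1.7e-13. The neighbouring identifier in the table was also present only in line 1, at 8.46, 8.08 and 7.04 TPM. Of the 49 genes present in line 1 alone, 8 stood directly beside another of the 49 in the identifier order.

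LOC_Os10g18090, on chromosome 10, had 59.8, 61.6 and 64.8 TPM in line 1, and all libraries of line 2 and of WT list it at 0. It too separated line 1 from all other libraries. Its change was -5.98 ± 0.11 (SE), and limma gave an adjusted p of 1.7e-13. Groups listed at 0 throughout add no spread, so the standard errors and adjusted p-values of these genes are too small.

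LOC_Os04g42399, on chromosome 4, rose most. It had 48.1, 50.9 and 53.9 TPM in line 2, whereas all libraries of line 1 and of WT list it at 0. Here line 2 stood apart from all other libraries. Its change was 5.70 ± 0.11 (SE), and limma gave an adjusted p of 3.3e-13.

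LOC_Os09g39770, on chromosome 9, had 31.4, 30.7 and 28.0 TPM in line 2, and the 3 libraries of line 1 list it at 0. The WT libraries disagreed, with 21.5 TPM in replicate 1, 23.0 TPM in replicate 3 and a listed 0 in replicate 2, so a listed 0 of this gene is no sure sign of absence. Its change between the lines was 4.95 ± 0.82 (SE), and limma gave an adjusted p of 0.00054. The spread was estimated from all groups together, so this standard error reflects the split in WT rather than a spread within either line. The files give no function for these 4 identifiers.

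**Figure D1:**
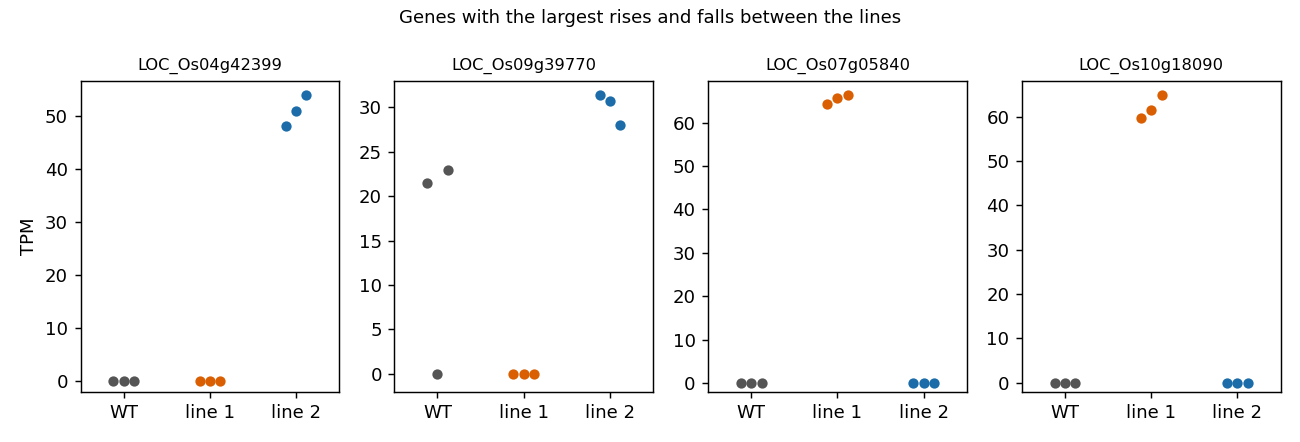
TPM of the 2 genes with the largest rises and the 2 with the largest falls from line 1 to line 2. Each point is 1 library (3 WT, 3 line 1, 3 line 2). LOC_Os07g05840 and LOC_Os10g18090 are above 0 only in line 1 and LOC_Os04g42399 only in line 2, while LOC_Os09g39770 is split within WT.

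The only identifier with a symbol was LOC_Os01g19850, which the RefSeq record lists under OsCCC2 and KCC2, a cation-chloride cotransporter. It had 2.01, 2.07 and 1.54 TPM in line 1 against 1.5, 1.54 and 1.77 TPM in line 2, and the lines overlapped. Its change was -0.14 ± 0.14 (SE), and limma gave an adjusted p of 0.54. In WT it was at 1.11, 1.56 and 1.46 TPM.

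Across all genes the lines differed widely, mostly by small amounts. In limma's test 4256 of the 19345 tested genes passed an adjusted p of 0.05, which is 22%. Without any adjustment 33.3% had a p under 0.05. In 38.9% of the tested genes the 3 libraries of one line lay entirely beyond the 3 of the other. The median size of a called change was 0.45 on the log2(TPM + 1) scale, and 2473 of the called genes (58.1%) changed by less than 0.5. A further 1346 changed by 0.5 to 1, and 437 by at least 1. Only 78 changed by at least 2, and of these 66 were lower and 12 higher in line 2. The median standard error of a change was 0.10.

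The direction of the many small changes depended on the scaling of the libraries. As deposited, 2941 genes (15.2% of those tested) were higher and 1315 (6.8%) were lower in line 2, so 69.1% of the called genes were higher. After median-ratio scaling, which sets the typical gene of each library to a common level, 1925 were higher and 1920 lower, which is 50.1% higher. After quantile normalization 56.1% were higher. Among changes of at least 1, 180 genes (0.93% of those tested) were higher and 257 (1.33%) lower in line 2, an order that turned with a pseudocount of 0.1, to 329 higher and 307 lower.

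**Figure D2:**
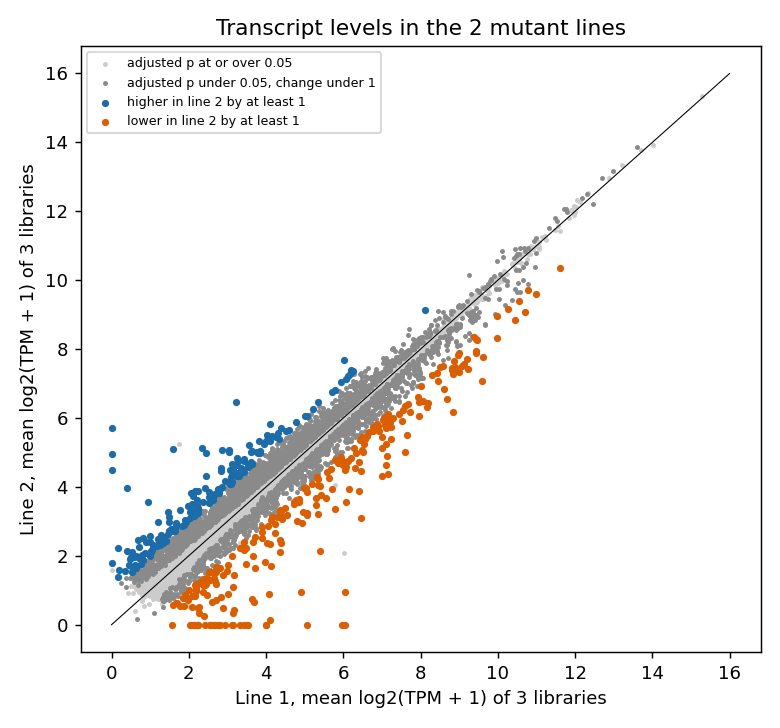
Mean log2(TPM + 1) of the 3 libraries of line 2 against that of line 1, 1 point per tested gene, with the diagonal of equal level. Blue and orange points are the 180 genes higher and the 257 genes lower in line 2 by at least 1 with an adjusted p under 0.05; the orange points extend to high levels and along the 0 of line 2.

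Abundant genes differed most often, and their large differences were nearly all falls in line 2. Among the 1459 genes that averaged 100 TPM or more, 40.6% were called, with 267 higher and 325 lower in line 2. In this class 52 genes were lower by at least 1 and 4 were higher by at least 1, and median-ratio scaling gave 62 and 3 genes, quantile normalization 45 and 6. The split of all called genes in this class turned after quantile normalization, to 414 higher and 258 lower. Among the 6072 genes from 20 to 100 TPM, 24.9% were called, and 70 were lower by at least 1 against 29 higher. From 5 to 20 TPM, where 20% of 6637 genes were called, 52 were lower and 81 higher by at least 1, but median-ratio scaling gave 60 and 62, and with quantile normalization the order turned, to 61 and 60. From 1 to 5 TPM, where 15.9% of 5177 genes were called, 83 were lower and 66 higher, an order that turned with a pseudocount of 0.1, to 117 and 193. The precision changed with the level: the median standard error went from 0.15 in the lowest class to 0.058 in the highest. The median change of all genes also differed, at 0.11 in the lowest class and 0.0037 in the highest.

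**Figure D3:**
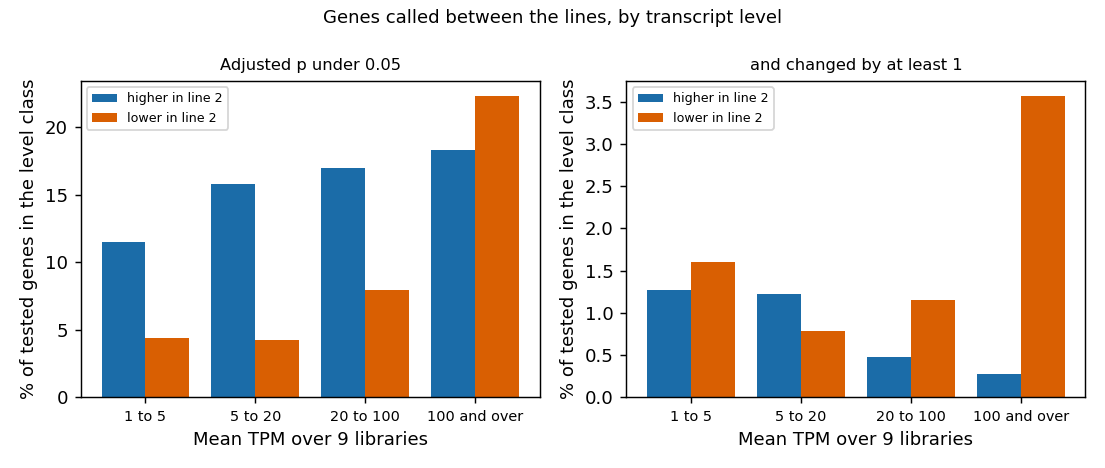
Share of tested genes called higher (blue) or lower (orange) in line 2, by mean TPM over the 9 libraries, for all called genes (left) and for those changed by at least 1 (right). At 100 TPM and over, 52 genes were lower by at least 1 and 4 higher.

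The 3 largest falls in absolute TPM show the pattern among abundant genes. The first of these genes had 2925, 3341 and 3191 TPM in line 1 against 1286, 1318 and 1294 TPM in line 2, with 1931, 1746 and 1701 TPM in WT. Here WT lay between the lines. The second had 2210, 1784 and 2153 TPM in line 1 against 790.9, 800.3 and 753.6 TPM in line 2, beside 744.1, 624.2 and 623.2 TPM in WT. The third had 1643, 1693 and 1627 TPM in line 1 against 550.3, 571.4 and 491.9 TPM in line 2, beside 621.3, 574.6 and 553.2 TPM in WT. In the latter pair line 1 was far above both other groups, and line 2 was close to WT. The changes were -1.28 ± 0.06, -1.38 ± 0.08 and -1.62 ± 0.06 (SE), with limma adjusted p-values of 2e-09, 2.2e-08 and 2.1e-10.

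TPM is a share of a fixed total, so genes that take more leave less for the rest. The 1315 genes called lower in line 2 held between 170497 and 172238 TPM in the libraries of line 1 and between 111427 and 112351 TPM in those of line 2, with 125352 to 129792 TPM in WT. The 2941 genes called higher held 176203 to 184662 TPM in line 1, 226500 to 227673 TPM in line 2 and 201119 to 203324 TPM in WT. Both sums describe genes chosen by their difference. The 10 genes with the largest falls in TPM made up 17.0% of the summed fall. For the 10 largest rises the share of the summed rise was 21.3%, so most of both shifts lay in other genes. The largest single shifts in mean TPM were 2243 and -1853. Depth is unknown in TPM, and total RNA per cell was not measured; in leaf tissue, a change in the share of a cell type and a change in RNA per cell cannot be told apart.

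WT gives a level against which the lines can be placed. For genes with large differences, the WT mean was usually nearer to the line with the lower level, which need not be at the WT level. Of the 257 genes lower by at least 1 in line 2, the WT mean was nearer to line 2 in 221, and 39 were listed at 0 in all WT libraries. Of the 180 genes higher by at least 1 in line 2, the WT mean was nearer to line 1 in 136 (75.6%). The WT mean lay below both lines in 113 of the 257 genes and in 85 of the 180. With a pseudocount of 0.1 the WT mean was nearer to the lower line in 83.1% of the genes that fell by at least 1 and in 61.1% of those that rose by at least 1. Among the 52 abundant genes that were lower by at least 1, WT was nearer to line 2 in 47. Over all called genes the lean to the lower line was weaker and was seen only for falls. WT was nearer to line 2 in 813 of the 1315 genes called lower. It was nearer to line 1 in 1489 of the 2941 called higher (50.6%). With both directions pooled, WT was nearer to line 1 in 1991 and to line 2 in 2265, and its mean lay between the lines in 2146. These are descriptions of group means and carry no test.

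Genes called between the lines were found on every chromosome at similar shares. The share ranged from 20.6% of 1557 tested genes on chromosome 6 to 24.4% of 1036 on chromosome 9. The share of called genes that were higher in line 2 ranged from 64.5% on chromosome 5 to 80.6% on chromosome 11. Against this even background 2 short stretches stood out. A running median of the change over 9 neighbouring tested genes reached 1.20 on chromosome 1 and 1.20 on chromosome 7, whereas its highest value was 0.786 on chromosome 11 and at most 0.613 on each of the others. The lowest value on any chromosome was -0.422, on chromosome 5.

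**Figure D4:**
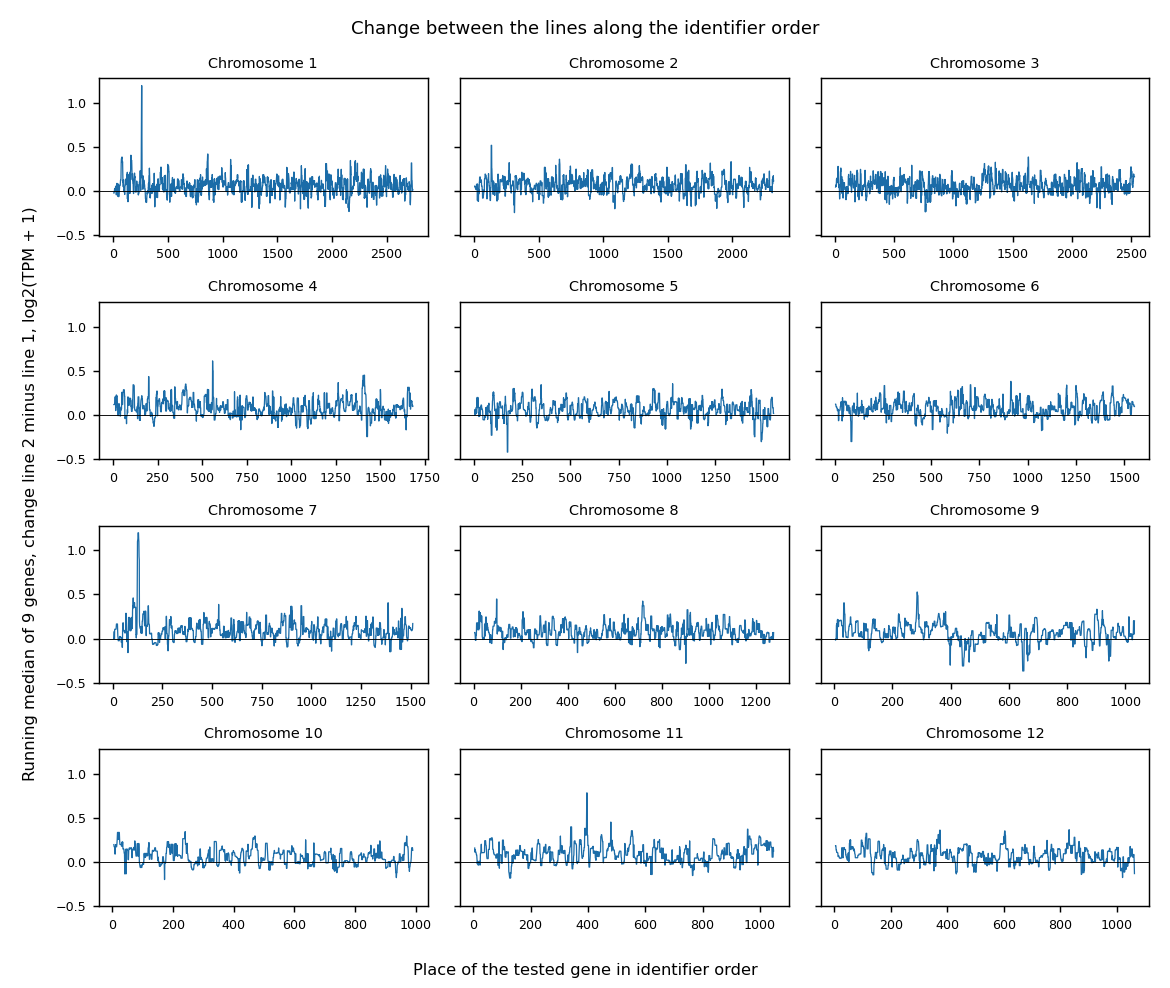
Running median over 9 tested genes of the change from line 1 to line 2 on the log2(TPM + 1) scale, by place in the identifier order, for each of the 12 chromosomes. The highest points are the peaks of 1.20 on chromosomes 1 and 7.

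On chromosome 7, 11 consecutive tested genes were all higher in line 2. They held places 123 to 133 among the 1515 tested genes of that chromosome. They were picked because each was called higher, so that count carries no weight of its own. At positions 2 and 3 of the stretch the means were 0.212 and 0.722 TPM in WT. They were 0.522 and 0.632 TPM in line 1 and 2.3 and 3.04 TPM in line 2. Both genes reached the minimum mean of 1 TPM only through line 2, so the filter favoured rises among such low genes. With any line 2 library left out, 10 genes of the stretch were tested. With no minimum TPM the longest run again held 11 genes. In each of the 11 the 3 libraries of line 2 lay above the 3 of line 1. The calls rest on the same libraries, so this lack of overlap carries no weight of its own either. Over all tested genes, called or not, 38.9% showed no overlap in one direction or the other. The changes ranged from 0.79 to 1.47 with a mean of 1.16. The largest adjusted p among them in limma's test was 0.03. In line 1 against WT the mean change of the same genes was -0.04, a mean over genes that lay on both sides of WT. It ran from -0.59 to 0.36, and the 3 of the 11 called were lower than WT, where 25.6% of all tested genes were called. In line 2 against WT it was 1.12, with 11 of the 11 called, where 21.9% of all tested genes were. These comparisons share the WT libraries with each other and the line libraries with the first.

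The gene at the first place of the chromosome 7 stretch had 59.3, 57.8 and 63.2 TPM in line 1 against 107, 106 and 100 TPM in line 2, with 63.2, 70.5 and 72.9 TPM in WT. The gene at its last place had 67.2, 48.8 and 55.0 TPM in line 1 against 103, 118 and 105 TPM in line 2, with 85.4, 84.1 and 86.2 TPM in WT. In both genes all libraries of line 2 exceeded all other libraries. Their mean TPM in line 2 was 1.74 and 1.91 times that in line 1. Among the 8 tested genes before the stretch the median change was 0.03, and 1 gene was called, higher in line 2. Among the 8 after it the median was 0.12, and the 2 genes called were lower in line 2, with changes of -0.39 and -0.64. Over all tested genes 22% were called.

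Most genes inside the stretch had low levels. The gene at the sixth place had 2.66, 2.74 and 3.47 TPM in line 1 against 9.32, 9.88 and 10.7 TPM in line 2, beside 3.09, 2.08 and 1.63 TPM in WT. The gene at the eighth place had 18.8, 15 and 16.6 TPM in line 1 against 37.1, 47.1 and 46.9 TPM in line 2, beside 22.8, 25.5 and 26.5 TPM in WT. Line 2 was highest in both genes. The ratio of the line means over the 11 genes ran from 1.74 to 4.81. The 2 highest ratios, 4.81 and 4.41, were at positions 3 and 2, whose genes reached the filter only through line 2. Their line 1 means of 0.632 and 0.522 TPM make these ratios uncertain. Among the other genes the highest ratio was 3.48.

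On chromosome 1, 5 consecutive tested genes were higher in line 2, at places 258 to 262 of 2743, with the largest mean change of any run, 2.32. Among them the largest adjusted p in limma's test was 0.001. Along the identifier order the changes were 0.76, 1.57, 2.54, 3.25 and 3.49 on the log2(TPM + 1) scale. The ratios of the line means were 1.83, 7.43, 6.84, 10.6 and 15.9, so the rise did not grow at every step. At the second place the line 1 mean was 0.443 TPM, where a ratio is uncertain. The gene at the fourth place had 8.08, 8.73 and 8.05 TPM in line 1 against 85.2, 85.3 and 92.3 TPM in line 2, beside 5.04, 5.67 and 6.64 TPM in WT. The gene at the last place had 2.81, 1.45 and 1.98 TPM in line 1 against 28.8, 35.7 and 34.8 TPM in line 2. In WT it was at 0.400 and 0.710 TPM in 2 libraries and listed at 0 in the other. The genes around this stretch were not uniform. Of the 8 tested genes before it 2 were called, both higher in line 2, with changes of 0.54 and 1.20. Of the 8 after it the 6 nearest did not pass the threshold, and the 2 farthest were called higher, with changes of 0.46 and 2.21.

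**Figure D5:**
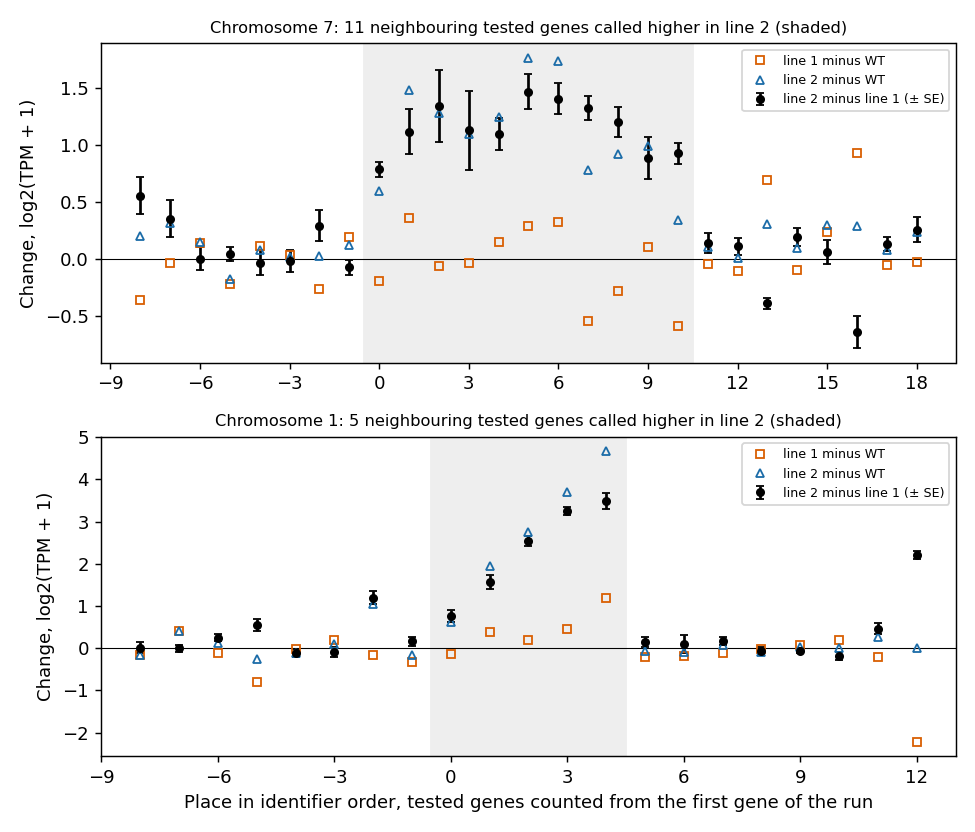
Change from line 1 to line 2 (black points, ± SE) and the change of each line from WT (open symbols) for the stretches on chromosome 7 and chromosome 1 and 8 tested genes on each side, in identifier order. In the shaded stretch on chromosome 7 line 2 rises above WT by a mean of 1.12 while line 1 scatters from -0.59 to 0.36. For chromosome 1 the log2(TPM + 1) change runs from 0.76 to 3.49, with called rises also among the genes on either side.

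The longest run of falls held 5 genes on chromosome 9, with a mean change of -0.58. The run of falls with the largest mean change held 3 genes on chromosome 3, with a mean of -1.90. As an example chosen after its values were seen, 4 consecutive tested genes on chromosome 4 were lower in line 2, with a mean change of -1.14. The first had 144, 145 and 123 TPM in line 1 against 33.3, 42.5 and 36.5 TPM in line 2, beside 173, 112 and 115 TPM in WT. The second had 70.6, 57.2 and 58.6 TPM in line 1 against 25.2, 24.7 and 24.3 TPM in line 2, beside 74.2, 72.1 and 76.6 TPM in WT. In these 2 genes line 2 lay below both other groups and WT was nearer to line 1. The fourth gene was alike, with means of 24.3 TPM in line 1, 15.3 TPM in line 2 and 27.5 TPM in WT. The third was not: line 1 stood apart at 14.9 TPM, beside 8.01 TPM in line 2 and 8.32 TPM in WT. WT was nearer to line 1 in 36 of the 257 genes lower by at least 1.

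Runs of at least 3 neighbouring tested genes called in the same direction numbered 121 in all, 102 of higher and 19 of lower genes. They held 397 genes. Of the runs, 100 had the minimum length of 3, and only the stretch on chromosome 7 exceeded 5. With 15.2% of tested genes called higher and 6.8% lower, neighbours called alike also occur apart from any stretch, and no test was made of the number of runs. It was 57 to 74 when any one of line 1 replicates 1 and 3 and line 2 replicates 1, 2 and 3 was left out, 75 after median-ratio scaling and 76 after quantile normalization. The chromosome 7 stretch kept a mean change of 1.05 to 1.23 when any single library was left out, with 9 to 11 of the 10 or 11 genes then tested called. The longest run nevertheless fell from 11 to 7 genes without line 1 replicate 2, without line 2 replicate 1 or without line 2 replicate 3, and to 6 at a minimum mean of 5 TPM. Of the genes changed by at least 1, 21 of the 180 higher and 34 of the 257 lower stood beside a tested gene changed by at least 1 in the same direction.

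The libraries of line 2 varied least among themselves. The median standard deviation of a gene over 3 libraries was 0.086 in line 2, 0.110 in line 1 and 0.114 in WT on the log2(TPM + 1) scale. Line 2 also listed more genes above 0, between 22397 and 22621 per library, than line 1 with 22170 to 22223 and WT with 21798 to 21885. The labels name no batch, harvest or sequencing run, so a difference in handling between the lines and a difference between the plants cannot be told apart.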

How the data were processed

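RNA sequencing of rice leaves was deposited by the authors as 1 table of TPM values, with 1 column per library (9 columns, each matched to its title). Per the submitters' processing notes, fastp 0.20.1, HISAT2 2.1.10 and DESeq2 1.26.0 were used, with no role given; the quantification program, genome build, annotation and strandedness are not given in the sources used here. TPM keeps no depth, so counting error is unknown and precision rests on 3 libraries per group. Values of overlapping or near-identical genes are uncertain too, since the quantification program and strandedness are not given.

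Changes were tested on log2(TPM + 1) with limma 3.58.1 in R 4.3.3, for genes whose average across all 9 libraries reached 1 TPM. All 9 libraries entered a model with a mean per group; the variance was moderated with a trend. The contrast was line 2 minus line 1, two-sided, Benjamini-Hochberg adjusted over all tested genes, with a threshold of 0.05. Fold changes on this scale understate those of low genes. Fits were tested on simulated data. Runs, chromosome counts and positions of WT are counts without a test; order follows the identifiers.

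The comparison, the gene lists and the tests were chosen with earlier results of these data known. Named genes had an adjusted p under 0.05, no overlap between the lines and a mean of at least 5 TPM in the higher line; because identifiers could not be paired with functions, the rule named the 2 largest rises and the 2 largest falls. LOC_Os01g19850 was added as the only one with a symbol; the genes described by place or by TPM shift were chosen after their values were seen. The planned counts by functional list were not run.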

Additional observations from a re-analysis of the deposited data

Results flagged for a closer look

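Both lines carry 1 genotype label and were set against the same WT libraries. Line 2 against line 1 therefore tests directly whether their changes from WT differ in size. Such a difference cannot be assigned to the mutant genotype, since handling and the origin of the lines are not given. By that test 4256 genes differed at an adjusted p under 0.05 in limma. The largest rises from line 1 to line 2 were of LOC_Os04g42399 with a change of 5.70 and LOC_Os09g39770 with 4.95, and the largest falls were of LOC_Os07g05840 with -6.05 and LOC_Os10g18090 with -5.98. The stretch of 11 neighbouring genes on chromosome 7 had a mean change of 1.16; its genes were picked because each was called higher. Groups of 3 libraries are too small for a test of single outlying libraries.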

How the results depend on the processing

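The number of genes called between the lines stayed between 3582 and 4553 under 9 alternatives, and between 3067 and 4878 when 1 library was left out. One of the 9, which dropped 9 genes with both a 0 and at least 5 TPM within a group, was chosen after seeing the data. The number changed by at least 1 was 437 as reported. It was 288 with a minimum mean of 5 TPM, which tests fewer genes, and 636 with a pseudocount of 0.1. When 1 library was left out it was 433 to 457. The number of runs was 75 after median-ratio scaling, 76 after quantile normalization, 21 with a minimum length of 4, and 57 to 151 when 1 library was left out, against 121; the cause was not tested. Genes listed at 0 in one line and present in the other numbered 58, 19 with presence at 5 TPM, and 58 to 70 when 1 library was left out. The longest run held 7 to 11 genes when 1 library was left out, and 7 genes after median-ratio scaling and quantile normalization, with a pseudocount of 0.1 and with a constant prior variance, where 9 or 10 of its 11 genes passed; at a minimum mean of 5 TPM the longest run held 6, and the 5 genes of the original run that were tested all passed. The 4 genes named by rule changed in the same direction in each fit that tested them, the highest adjusted p from limma being 0.0057. A fit with a replicate block called 4381 genes. Deviations of same-numbered libraries of the lines had correlations of 0.0218, 0.0116 and 0.0138 across genes. For libraries with different numbers they ran from -0.0268 to 0.0126. All were near 0, but with 3 libraries per line they cannot show whether same-numbered libraries share a harvest or other handling. Unknown depth limits low genes most: their changes near the edge of about 0.3 TPM cannot be sized.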
